A study of Mus musculus with 25 samples.

Results

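Prostaglandins and leukotrienes are lipid signals made from arachidonic acid, and 10 genes of their making, breakdown and sensing were followed here in tumour RNA from mice given an antibody against CD73 and from control mice. The genes were taken by symbol from a table of 25006 entries, and each of the 10 symbols had a single row. They are Pla2g4a, Ptgs1, Ptgs2, Ptges, Hpgd, Ptger2, Ptger4, Alox5, Alox5ap and Lta4h. Of these, 9 had a mean of at least 10 normalized counts over the 6 libraries and were tested, and Hpgd did not reach that level.

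The tested libraries came from C57BL/6 mice bearing tumours of E0771, a mouse mammary carcinoma line, that were treated with anti-CD73 every 3 days (3 libraries). The others came from control mice with the same tumour (3 libraries), and the labels used here do not say what these received, nor the age or sex of the mice. All 6 libraries are labelled as CD8+ T cells enriched from tumour tissue. The other 19 of the 25 samples, from spleen CD8+ T cells in culture, were not analysed here. CD73, the product of Nt5e, forms adenosine outside cells, and the comparison addresses which transcripts differed when it was targeted in tumour-bearing mice.

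As background, the cytosolic phospholipase A2 frees arachidonic acid from membranes. The cyclooxygenases encoded by Ptgs1 and Ptgs2 turn it into prostaglandin H2, from which the synthase encoded by Ptges makes prostaglandin E2. In the other branch, 5-lipoxygenase and its helper protein FLAP make leukotriene A4, which the hydrolase encoded by Lta4h turns into leukotriene B4, an attractant of neutrophils. In tumours prostaglandin E2 is known for restraining T cells through the EP2 and EP4 receptors, which raise cyclic AMP, as the adenosine receptor encoded by Adora2a also does.

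The libraries held 11618374 to 13172235 recovered reads in the anti-CD73 group and 10180624 to 17161679 in the control group. Markers of the labelled cell type gave few reads. The 12 T cell markers together took 0.00371 to 0.00676% of the reads in the anti-CD73 libraries and 0.00216 to 0.0066% in the controls, and 12 macrophage markers took 0.134 to 0.222% in the anti-CD73 libraries and 0.0762 to 0.143% in the controls. These shares are not per transcript length, so they do not give the proportions of the cell types. In bulk material of this kind fewer cells of a type and less RNA per cell cannot be told apart. Among the controls, the first replicate was unlike the other two: limma called 2724 genes without it but 0 when all 6 libraries were fitted, so the members' results are given with and without it. The replicate numbers are not tied to separate animals in the labels, and a p-value here reflects only how far these libraries vary, which may be technical. Nt5e itself had 100, 58.2 and 69.9 normalized counts in the anti-CD73 libraries and 92.4, 55.7 and 67.4 in the controls, which checks no label, since the antibody acts on the protein.

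With all 6 libraries, none of the 9 tested members passed the test over all genes, and 2 of them had groups that did not overlap: Alox5, the gene of 5-lipoxygenase, was about 2.28-fold higher after anti-CD73, and Ptgs1, the constitutive cyclooxygenase, stood at 0.599 of its control level. Ptgs2, the inducible cyclooxygenase, and the receptor genes Ptger2 and Ptger4 were higher after anti-CD73 than in control replicates 2 and 3, while control replicate 1 was as high as the anti-CD73 libraries or higher. Pla2g4a, Ptges, Alox5ap and Lta4h overlapped between the groups. Limma on log2(normalized count + 1) with Benjamini-Hochberg adjustment over 12262 genes called 0% of them at an adjusted p under 0.05 (smallest 0.141), edgeR also called 0%, and DESeq2 called 586 genes, or 4.78%. At an unadjusted p under 0.05 limma had 1902 genes, or 15.5% (8.69% higher and 6.82% lower), and edgeR 1868, or 15.2%, beside 2 of the 9 members by limma (1 higher and 1 lower). The groups did not overlap for 23.5% of all tested genes (11.5% higher and 12% lower), so 2 of 9 members is a share near the background. Of the 9 members 5 had a log2 fold change above 0 and 4 below, beside 50.5% and 49.5% of all tested genes. The median log2 fold change of the 9 members was 0.15, against 0.0039 for all tested genes, and it was -0.093 when Ptger2, Ptger4 and Alox5, whose means were under 50, were left out.

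**Figure D1:**
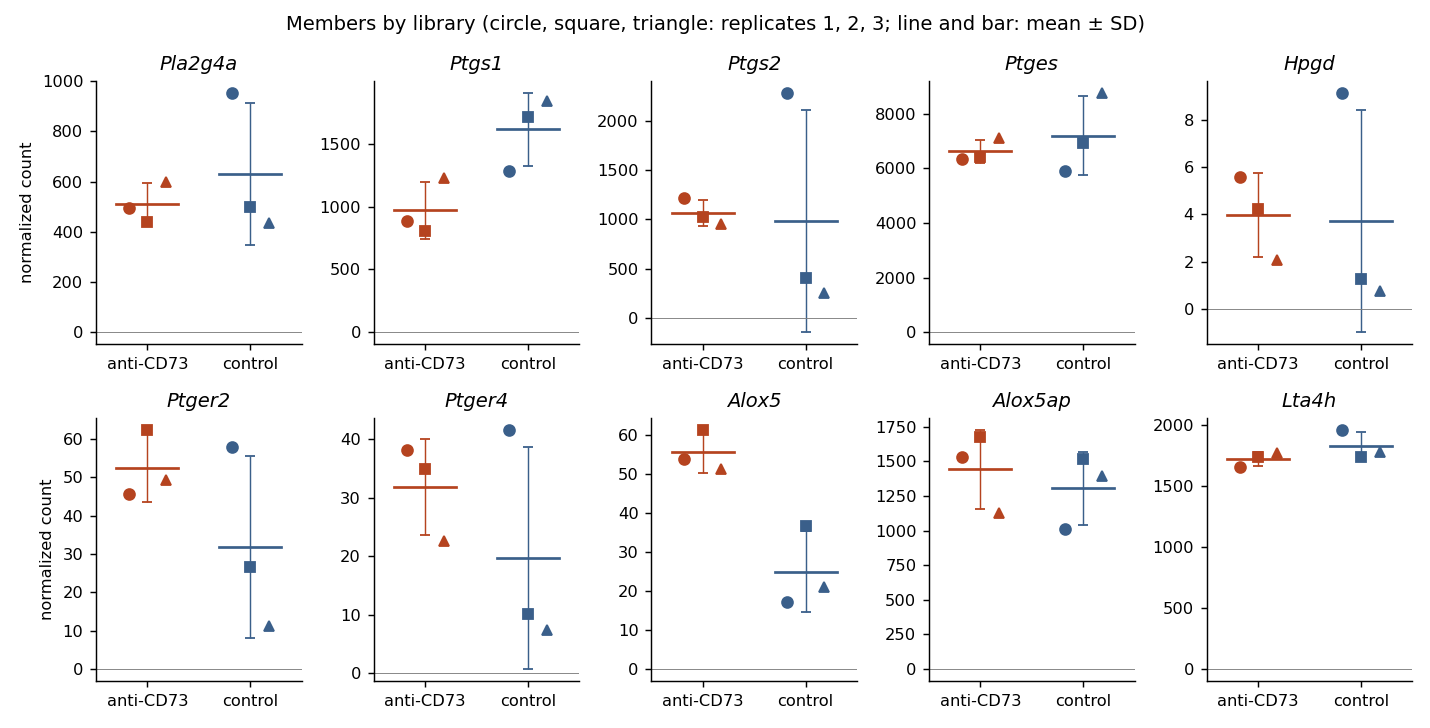
Normalized counts (vertical axes, each panel with its own scale) of the 10 members in the 3 anti-CD73 and 3 control libraries. Symbols are single libraries, horizontal lines are means and bars are SD. The groups separate for Ptgs1 and Alox5, and control replicate 1 (blue circle) lies far above the other controls for Ptgs2, Hpgd, Ptger2 and Ptger4.

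Arachidonate release was represented by Pla2g4a, the cytosolic phospholipase A2 (ENSMUSG00000056220; GRCm38.p6 chromosome 1, 149829618 to 149961290). It had 494, 440 and 599 normalized counts in the anti-CD73 libraries and 952, 498 and 434 in the controls. Control replicate 1 was about 2.04 times the mean of the other controls, and the remaining 5 libraries lay between 434 and 599. The log2 fold change was -0.22 (SE 0.29, limma adjusted p = 0.76), and without control replicate 1 it turned to 0.12 (SE 0.14, adjusted p = 0.568; adjusted p 0.351 to 0.961 over all alternatives tried).

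The cyclooxygenase genes had log2 fold changes of opposite sign, which was so in all 18 alternatives. These reuse the same 6 libraries, and with all of them the 95% interval of Ptgs2 included 0. Ptgs1 (ENSMUSG00000047250; chromosome 2, 36216742 to 36258593) had 883, 803 and 1230 normalized counts in the anti-CD73 libraries and 1287, 1714 and 1841 in the controls. All anti-CD73 libraries were below all controls, the nearest pair being anti-CD73 replicate 3 and control replicate 1. The log2 fold change was -0.74 (SE 0.20, 95% interval -1.21 to -0.26), which did not pass over all genes by limma (adjusted p = 0.183) or edgeR (adjusted p = 0.189), whereas DESeq2, which called 4.78% of its genes, gave an adjusted p of 0.0397. Without control replicate 1 Ptgs1 passed the limma test (log2 fold change -0.89, SE 0.16, adjusted p = 0.00665), with a range over the 18 alternatives of -0.92 to -0.61 in log2 fold change and 2.37e-05 to 0.684 in adjusted p.

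Ptgs2 (ENSMUSG00000032487; chromosome 1, 150100031 to 150108234) had 1212, 1025 and 954 normalized counts in the anti-CD73 libraries and 2280, 409 and 255 in the controls. The anti-CD73 libraries were close to each other, with a mean of 1064 ± 133 (SD, n = 3), whereas the controls spread from the lowest to the highest value of all 6 (981 ± 1127, SD, n = 3). Control replicate 1 was 6.86 times the mean of the other controls. The group means differed by a factor of only 1.08, and the log2 fold change of 0.77 had a wide 95% interval, from -0.90 to 2.44 (limma adjusted p = 0.642). By edgeR and DESeq2, which work on the scale of the mean, the log2 fold change was 0.15 and 0.12. Without control replicate 1 it was 1.71 (SE 0.19, limma adjusted p = 0.00166), a 3.27-fold difference. That library was chosen from these data and was the highest of the 6 for Ptgs2, so leaving it out raises the fold change. Without control replicate 3 instead, the log2 fold change was 0.13 (limma adjusted p = 0.934). The adjusted p ranged from 2.28e-14 to 0.973 over the 18 alternatives.

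The promoters of both genes and of Alox5 are shown because the groups separated for Ptgs1 and Alox5, and Ptgs2 is the inducible cyclooxygenase, whose controls spread widely. Each window runs from 250 bases before to 30 bases after a RefSeq start site, 5′ to 3′ on the strand of the gene, with sequences from RefSeq on GRCm38.p6, the assembly of mm10. Capitals mark matches to 5 motifs searched on both strands. They are the core of the cyclic AMP response element, written CGTCA, the E-box, written CACGTG, and the palindromic site of C/EBP proteins, written TTGCGCAA. The other two are the GC box, written GGGCGG, and the TATA box, written TATAAA. The Ptgs1 window lies inside the span of the gene, at the only start site in the promoter table used.
Ptgs2 promoter, GRCm38.p6 chr1:150099781-150100060, plus strand: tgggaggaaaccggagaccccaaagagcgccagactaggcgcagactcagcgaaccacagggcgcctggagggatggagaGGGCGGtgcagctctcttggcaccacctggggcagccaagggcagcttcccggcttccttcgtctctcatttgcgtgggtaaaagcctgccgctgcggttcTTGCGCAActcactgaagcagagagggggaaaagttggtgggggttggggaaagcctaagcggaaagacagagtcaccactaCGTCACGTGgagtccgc
Ptgs1 promoter, GRCm38.p6 chr2:36230176-36230455, plus strand: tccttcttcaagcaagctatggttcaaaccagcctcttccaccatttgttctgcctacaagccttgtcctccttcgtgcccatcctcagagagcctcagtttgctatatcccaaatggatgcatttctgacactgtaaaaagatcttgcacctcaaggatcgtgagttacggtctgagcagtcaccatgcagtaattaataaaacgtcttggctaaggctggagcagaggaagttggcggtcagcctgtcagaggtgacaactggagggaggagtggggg
Alox5 promoter, GRCm38.p6 chr6:116461149-116461428, minus strand: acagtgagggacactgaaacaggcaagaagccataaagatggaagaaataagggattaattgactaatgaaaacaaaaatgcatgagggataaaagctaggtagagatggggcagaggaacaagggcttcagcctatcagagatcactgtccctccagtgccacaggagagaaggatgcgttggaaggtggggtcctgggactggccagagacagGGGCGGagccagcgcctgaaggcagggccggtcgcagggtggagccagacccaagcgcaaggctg
In the Ptgs2 window the response element core began at base 14, counted from 1 at the RefSeq start site, and overlapped the E-box that began at base 17. These positions hold for that annotated start only, and where transcription starts in these libraries was not tested. The C/EBP site began 69 bases before the start, and the GC box 170 bases before it. Binding of C/EBP and CREB family proteins to this promoter is known in mouse cells. Over all 32851 promoter windows of the same length, 19.9% held the response element core, 6.79% the E-box, 0.18% the C/EBP site, 34.7% the GC box and 13.1% the TATA box. Windows were found for 9 of the 10 members (10 windows), and of these only the Ptgs2 window held the response element core, the E-box or the C/EBP site. The Alox5 window held a GC box that began 35 bases before the start, and the Ptgs1 window held none of the 5 motifs. A match is a description of the letters and was not tied to the expression values.

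Ptges, the inducible microsomal prostaglandin E synthase (ENSMUSG00000050737; chromosome 2, 30889471 to 30931020), makes prostaglandin E2 downstream of Ptgs2. It had 6339, 6430 and 7103 normalized counts in the anti-CD73 libraries and 5902, 6924 and 8764 in the controls. The anti-CD73 values lay within the range of the controls. The log2 fold change was -0.10 (SE 0.16, 95% interval -0.47 to 0.27, limma adjusted p = 0.795). Leaving out control replicate 1 gave -0.24 (SE 0.11, limma adjusted p = 0.151; 0.151 to 0.987 over all alternatives), and it turned to 0.0085 with quantile normalization and to 0.049 without control replicate 3. A long noncoding RNA and a pseudogene overlap the span of Ptges in RefSeq, and no source used here states how their reads were assigned.

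Hpgd, the dehydrogenase that begins the breakdown of prostaglandins (ENSMUSG00000031613; chromosome 8, 56294552 to 56321046), was near the limit of detection. It had 6, 4 and 2 reads in the anti-CD73 libraries and 9, 1 and 1 in the controls. The 9 reads of control replicate 1 have an exact 95% Poisson interval of 4.12 to 17.1 and the 1 read of control replicate 2 one of 0.0253 to 5.57, which cover counting error only. The intervals of all anti-CD73 libraries overlapped those of the controls, which is not a test of a group difference. In the limma fit with no filter the log2 fold change of Hpgd was 0.46 (SE 0.70, adjusted p = 0.792).

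The receptors of prostaglandin E2 that raise cyclic AMP had their lowest values, like Ptgs2, in control replicates 2 and 3. Ptger2, the EP2 receptor (ENSMUSG00000037759; chromosome 14, 44988111 to 45003820), had 45.6, 62.5 and 49.4 normalized counts in the anti-CD73 libraries and 57.9, 26.6 and 11.2 in the controls. Ptger4, the EP4 receptor (ENSMUSG00000039942; chromosome 15, 5233399 to 5244187), had 38.1, 34.9 and 22.6 in the anti-CD73 libraries and 41.6, 10.1 and 7.48 in the controls. For both genes all anti-CD73 libraries exceeded control replicates 2 and 3, and control replicate 1 fell in or above the anti-CD73 range. Ptger4 rested on few reads, 41, 33 and 22 after anti-CD73 and 41, 8 and 10 in the controls, and the 8 reads have a 95% Poisson interval of 3.45 to 15.8.

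The log2 fold change was 0.97 for Ptger2 (SE 0.54, limma adjusted p = 0.43) and 1.01 for Ptger4 (SE 0.61, adjusted p = 0.464). Without control replicate 1 both passed the limma test, Ptger2 at 1.53 (SE 0.37, adjusted p = 0.0204) and Ptger4 at 1.73 (SE 0.37, adjusted p = 0.0124). That library was chosen from these data and was the highest control for both genes, so leaving it out raises both fold changes. Over 17 alternatives the adjusted p ranged from 0.0097 to 0.839 for Ptger2 and from 0.00895 to 0.845 for Ptger4, and both fold changes stayed above 0. The ratio of Ptger4 to Ptger2 reads within a library was 0.837, 0.559 and 0.458 after anti-CD73 and 0.719, 0.381 and 0.667 in the controls, so it overlapped between the groups.

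**Figure D2:**
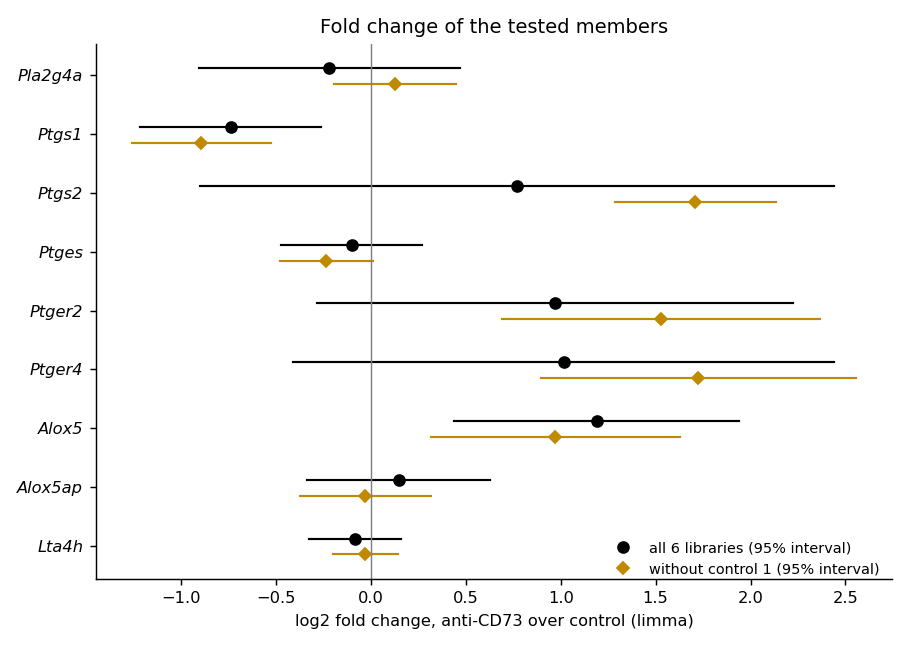
Log2 fold change of the 9 tested members, anti-CD73 over control (horizontal axis, limma), with all 6 libraries (black) and without control replicate 1 (ochre). Bars are 95% intervals. The intervals of Ptgs1 and Alox5 exclude 0 in both fits, those of Ptgs2, Ptger2 and Ptger4 only in the fit without control replicate 1.

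In the leukotriene branch the groups separated for the lipoxygenase gene and overlapped for its partners. Alox5 (ENSMUSG00000025701; chromosome 6, 116410071 to 116461178) had 53.9, 61.4 and 51.4 normalized counts in the anti-CD73 libraries and 17.3, 36.7 and 21.0 in the controls. All anti-CD73 libraries lay above all controls, and here control replicate 1 was the lowest of the 6. These values came from 58, 58 and 50 reads after anti-CD73 and 17, 29 and 28 reads in the controls. The log2 fold change was 1.19 (SE 0.32, 95% interval 0.44 to 1.94), which did not pass over all genes by limma (adjusted p = 0.178) or edgeR (adjusted p = 0.185) and passed by DESeq2 (adjusted p = 0.0496). Without control replicate 1 it was 0.97 (SE 0.29) and passed by limma (adjusted p = 0.0426) and edgeR (adjusted p = 0.0464) but not by DESeq2 (adjusted p = 0.0603). The adjusted p ranged from 0.0426 to 0.675 over 17 alternatives. A long noncoding RNA overlaps the span of Alox5 in RefSeq.

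Alox5ap encodes FLAP, which presents arachidonic acid to 5-lipoxygenase (ENSMUSG00000060063; chromosome 5, 149265004 to 149288153). It had 1532, 1673 and 1124 normalized counts in the anti-CD73 libraries and 1008, 1517 and 1390 in the controls, with overlapping groups (log2 fold change 0.15, SE 0.21, limma adjusted p = 0.772). With control replicate 1 left out the value was -0.029 (SE 0.15, limma adjusted p = 0.915; 0.476 to 0.990 over all alternatives). Lta4h, the hydrolase that makes leukotriene B4 (ENSMUSG00000015889; chromosome 10, 93453396 to 93484896), varied least of the 10 members between libraries. It had 1654, 1735 and 1771 normalized counts in the anti-CD73 libraries and 1960, 1737 and 1774 in the controls, and its highest library was 1.18 times its lowest. Its log2 fold change was -0.083 with a 95% interval of -0.33 to 0.16 (limma adjusted p = 0.741). Leaving out control replicate 1 gave -0.030 (SE 0.076, limma adjusted p = 0.814; 0.716 to 0.937 over all alternatives).

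Ratios of reads within a library do not depend on the scaling between libraries, and 4 of them were compared, chosen after the values were seen. The reads of Alox5 per read of Alox5ap were 0.0352, 0.0367 and 0.0457 in the anti-CD73 libraries and 0.0171, 0.0242 and 0.0151 in the controls. The reads of Ptges per read of Ptgs1 were 7.18, 8.01 and 5.78 in the anti-CD73 libraries and 4.59, 4.04 and 4.76 in the controls. Both ratios were higher in all anti-CD73 libraries than in any control. As the ratios were picked from the values, they are given as a description, with no test. The ratio of Ptgs2 to Ptgs1 was 1.37, 1.28 and 0.776 after anti-CD73 and 1.77, 0.239 and 0.139 in the controls, which overlapped, as did Ptger4 over Ptger2.

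**Figure D3:**
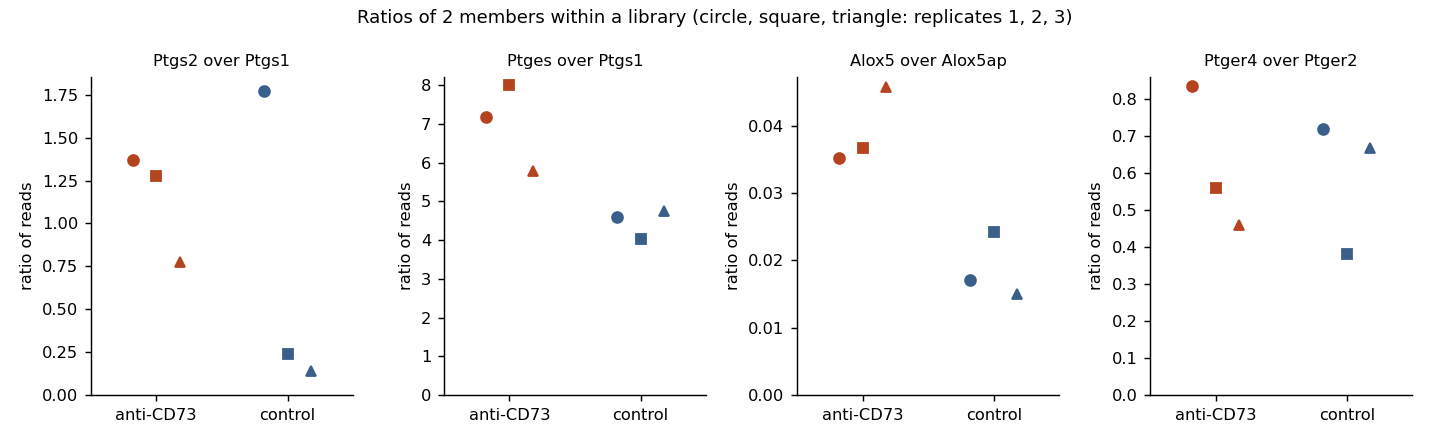
Ratio of recovered reads of 2 members within each library (vertical axes, from 0), for the anti-CD73 and control libraries, 1 symbol per library. Ptges over Ptgs1 and Alox5 over Alox5ap are higher in all 3 anti-CD73 libraries than in any control, and control replicate 1 is the highest library for Ptgs2 over Ptgs1.

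Without control replicate 1, limma called 22.2% of all tested genes, 11.9% higher and 10.3% lower. Of the 9 members 4 then rose (Ptgs2, Ptger2, Ptger4 and Alox5) and 1 fell (Ptgs1) after anti-CD73. EdgeR without that library called the same number of members, 5, and 22% of all genes, and DESeq2 called 4 members and 21.8% of its genes. The choice of library to leave out followed from these data. Control replicate 1 was the highest of the 6 libraries for 5 of the 10 members, namely Pla2g4a, Ptgs2, Hpgd, Ptger4 and Lta4h, and the lowest for 3, namely Ptges, Alox5 and Alox5ap.

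Marker genes of several cell types also varied across the libraries. The 11 neutrophil markers summed to 8970 to 15978 normalized counts in the anti-CD73 libraries and 6065 to 8313 in the controls, with 8 of the 10 tested markers above 0 in log2 fold change and Camp at 0 reads in control replicate 1. The 12 macrophage markers summed to 16531 to 27358 after anti-CD73 and 9784 to 18607 in the controls, with 12 of 12 above 0 and none at 0 reads. The 9 fibroblast markers summed to 5188, 6071 and 5729 after anti-CD73 and 4552, 5131 and 4095 in the controls, with 5 of 8 tested above 0 and none at 0 reads. The neutrophil and fibroblast sums, like Alox5, did not overlap between the groups, whereas the macrophage sums overlapped. The neutrophil sum, like Alox5, was lowest in control replicate 1, as were the erythroid, platelet and epithelial sums given below. The neutrophil markers differed from each other there. S100a8, S100a9, Mmp8, Retnlg, Ngp, Camp and Ltf had their lowest value of all libraries in that control. Ly6g had its highest (253, against 93.8 and 117 in the other controls and 118 to 153 after anti-CD73). Cxcr2 and Csf3r were higher in that control than in the other controls. The part of the neutrophil, macrophage and fibroblast lists in the difference of Alox5 was not tested.

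For Ptgs2, Ptger2 and Ptger4, 7 marker lists had, like these genes, lower sums in control replicates 2 and 3 than in the other 4 libraries. One is the macrophage list given above. The 8 dendritic cell markers summed to 2272, 1974 and 1183 normalized counts in the anti-CD73 libraries and 1695, 554 and 482 in the controls, with 6 of 6 tested above 0 and Cd209a at 0 reads in 4 libraries. The 6 endothelial markers summed to 705, 845 and 554 after anti-CD73 and 761, 251 and 195 in the controls, with 3 of 3 tested above 0. Tek was at 0 in anti-CD73 replicate 3 and control replicate 2, and Cldn5 at 0 in control replicate 1. Unlike the sum, Cldn5 was highest in control replicates 2 and 3 (11.4 and 9.73) and Tek in control replicate 3 (2.99), both under the filter. The 12 T cell markers summed to 828, 752 and 458 after anti-CD73 and 859, 279 and 358 in the controls, with 12 of 12 above 0 and none at 0 reads. The 7 mast cell markers summed to 323, 341 and 199 after anti-CD73 and 415, 147 and 138 in the controls, with 6 of 6 tested above 0 and Ms4a2 at 0 in 3 libraries. The 5 B cell markers summed to 915, 910 and 904 after anti-CD73 and 1021, 621 and 582 in the controls, with 1 of 2 tested above 0 and none at 0 reads, and most of that sum was Pax5. The 5 eosinophil markers summed to 32.5, 24.4 and 18.5 after anti-CD73 and 29.4, 3.80 and 8.23 in the controls, with the 1 tested above 0. Of them Epx was at 0 reads in 4 libraries, Prg2 in 2 and Il5ra in 1. In all 7 lists control replicate 1 lay in or above the anti-CD73 range, and their part in the values of Ptgs2 and the receptors was not tested.

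Beside the lower Ptgs1, the 7 epithelial markers summed to 2511, 2127 and 2704 normalized counts in the anti-CD73 libraries and 1961, 3673 and 4663 in the controls. Most of that sum was Krt8, with 2341, 2000 and 2651 after anti-CD73 and 1856, 3591 and 4559 in the controls. Of 3 tested markers, 1 lay above 0 and 2 below. Cdh1, under the filter, was higher after anti-CD73 without overlap. Krt19 and Krt7 were at 0 reads in control replicate 1, and Cldn4 was at 0 in anti-CD73 replicates 1 and 2. The 6 platelet markers, of a cell that carries this cyclooxygenase, summed to 495 to 776 in the anti-CD73 libraries and 412 to 783 in the controls, with 2 of 3 tested above 0. Gp1bb was at 0 reads in all 6 libraries, Gp9 in anti-CD73 replicate 2, and Gp6 in anti-CD73 replicates 2 and 3 and control replicate 2. The 5 erythroid markers with a row summed to 20624, 30978 and 8412 after anti-CD73 and 7845, 55529 and 58716 in the controls. All 5 lay below 0 (median log2 fold change -0.73), none was at 0 reads, and without control replicate 1 all 5 fell (limma). The sums of these 3 lists overlapped between the groups, unlike Ptgs1, and their part in its difference was not tested.

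**Figure D4:**
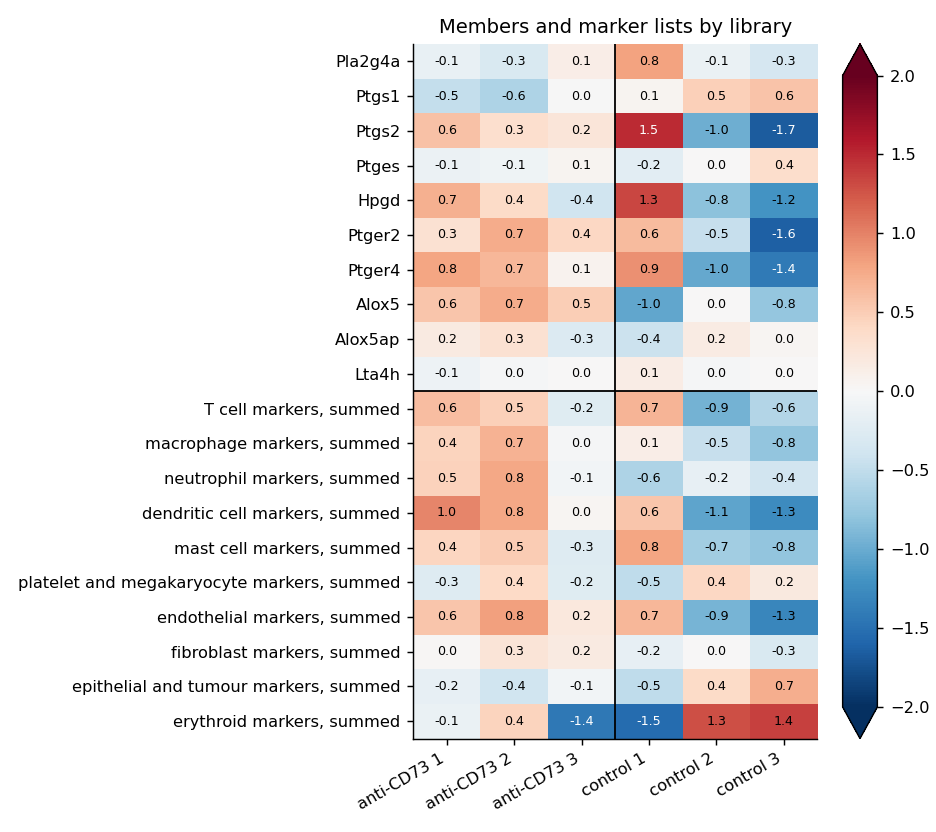
Log2(normalized count + 1) minus its mean over the 6 libraries (colour and printed value) for the 10 members, above the line, and for the summed markers of 10 cell types, below it. Columns are the 3 anti-CD73 libraries, then the 3 controls. Control replicate 1 is at 1.5 for Ptgs2 and 0.9 for Ptger4, and at -1.0 for Alox5 and -0.6 for the neutrophil markers. It is also at -1.5 for the erythroid, -0.5 for the platelet and -0.5 for the epithelial markers.

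The gene most like each member in its profile over the 6 libraries was found among 10213 genes with a mean of at least 50, as the smallest root mean square difference of centred log2 values. For Ptger4 it was the chemokine gene Ccl4 (difference 0.10 log2 units), with 719, 637 and 373 normalized counts in the anti-CD73 libraries and 726, 172 and 128 in the controls. For Ptgs2 it was Tmem26 (0.15), for Ptger2 Mtm1 (0.16) and for Alox5 Amica1 (0.15), an adhesion molecule of leukocytes. Hpgd, which was not tested, was not compared. For Ptgs1 it was Cped1 (0.039), for Pla2g4a Zfp984 (0.031), for Ptges Mul1 (0.042), for Alox5ap Ndst2 (0.038) and for Lta4h Poldip3 (0.0089). These are descriptions over 6 libraries, in which many genes share a profile.

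Of 55 other genes of the pathway, 32 were tested, 22 with a log2 fold change above 0 and 10 below, and 0 passed over all genes by limma (smallest adjusted p 0.166). At an unadjusted p under 0.05, 5 were higher and 4 lower, beside 8.69% and 6.82% of all genes. The groups did not overlap for 7 of the 32 that were higher and 4 that were lower, beside 11.5% and 12% of all tested genes. The genes named below have the smallest p of their list, which favours such separation. The median log2 fold change of the 32 was 0.37, against 0.0039 for all tested genes. Without control replicate 1 it was 0.28, with 6 of 32 called higher and 4 lower, beside 11.9% and 10.3% of all tested genes.

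Among phospholipases A2, 7 of 17 were tested, 5 above 0 and 2 below. Pla2g5, a secreted phospholipase, had 17.7, 14.8 and 32.9 normalized counts in the anti-CD73 libraries and 48.7, 49.4 and 58.4 in the controls, without overlap (log2 fold change -1.30, SE 0.34, limma adjusted p = 0.178), and it passed without control replicate 1 (-1.34, adjusted p = 0.0305). The calcium-independent Pla2g6 (0.42, SE 0.14) and the lysosomal Pla2g15 (0.32, SE 0.13) lay higher in all anti-CD73 libraries than in any control, and neither passed without control replicate 1 (limma adjusted p = 0.0532 and 0.109). Of the 9 other prostanoid synthases, 7 lay above 0 and 2 below. Cbr1, a carbonyl reductase that can convert prostaglandin E2 to F2α, had 28.8, 23.3 and 25.7 normalized counts in the anti-CD73 libraries and 11.2, 11.4 and 8.98 in the controls (1.23, SE 0.30, limma adjusted p = 0.166). Fam213b, a prostaglandin F synthase, also lay higher without overlap (1.16, SE 0.33), and Akr1b3, an aldose reductase with the same activity, lower (-0.41, SE 0.15). Cbr1 (1.27, limma adjusted p = 0.0273) and Fam213b (1.43, adjusted p = 0.0117) passed without control replicate 1, and Akr1b3 did not (-0.42, adjusted p = 0.0743).

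For prostanoid transport and breakdown, 2 of 4 genes lay above 0, and those with the smallest p were the reductase Ptgr1 (log2 fold change -0.40, SE 0.19), the prostaglandin transporter Slco2a1 (0.50, SE 0.46) and the reductase Ptgr2 (0.18, SE 0.16). Of these only Slco2a1 passed without control replicate 1 (1.06, SE 0.21, limma adjusted p = 0.0096), with 134 ± 11.1 normalized counts in the anti-CD73 libraries and 204, 51.9 and 77.1 in the 3 controls. The control left out was its highest library, so leaving it out raises the fold change. Of the 7 other prostanoid receptors, 2 were tested, the prostacyclin receptor Ptgir (0.51, SE 0.29) and the EP1 receptor Ptger1 (0.53, SE 0.49), neither of which passed without control replicate 1 (limma adjusted p = 0.454 and 0.875). Ptgdr had 0 reads in all 6 libraries.

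In leukotriene synthesis and export, 6 of 8 genes were tested, 3 above 0 and 3 below. Mgst3, a microsomal glutathione transferase that can make leukotriene C4, had 143, 118 and 150 normalized counts in the anti-CD73 libraries and 177, 618 and 678 in the controls. The groups did not overlap, but control replicate 1 lay nearer to the anti-CD73 libraries than to the other controls (log2 fold change -1.62, SE 0.48, limma adjusted p = 0.197). Without that control Mgst3 passed at -2.24 (SE 0.14, limma adjusted p = 0.000401), a fold of 0.212 against 0.326 with all libraries. Mgst2, with the same activity, was lower without overlap (-0.39, SE 0.15), and the dipeptidase Dpep2, which acts on leukotriene D4, had 0.70 (SE 0.33). When that control was left out, Mgst2 passed (-0.49, limma adjusted p = 0.0254) and Dpep2 did not (0.58, adjusted p = 0.264).

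Among leukotriene receptors, 3 of 4 were tested and all 3 lay above 0. Ltb4r1, the leukotriene B4 receptor of neutrophils and other leukocytes, had 219, 248 and 130 normalized counts in the anti-CD73 libraries and 99.5, 100 and 70.3 in the controls. The groups did not overlap (log2 fold change 1.10, SE 0.28, limma adjusted p = 0.177), and it passed without control replicate 1 (1.18, SE 0.28, adjusted p = 0.0189). Beside it, 8 of the 10 tested neutrophil markers given above lay above 0 in log2 fold change and 2 below. All 12 macrophage markers lay above 0. The part of either list in the difference of Ltb4r1 was not tested. The cysteinyl leukotriene receptors Cysltr1 (0.53, SE 0.61) and Cysltr2 (0.21, SE 0.53) overlapped between the groups and did not pass without control replicate 1 (limma adjusted p = 0.188 and 0.489). Of the 6 other lipoxygenases, 1 was tested, the epidermal Aloxe3 (-0.28, SE 0.34; limma adjusted p = 0.906 without control replicate 1), and Alox12b and Alox12e had 0 reads in all 6 libraries.

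**Figure D5:**
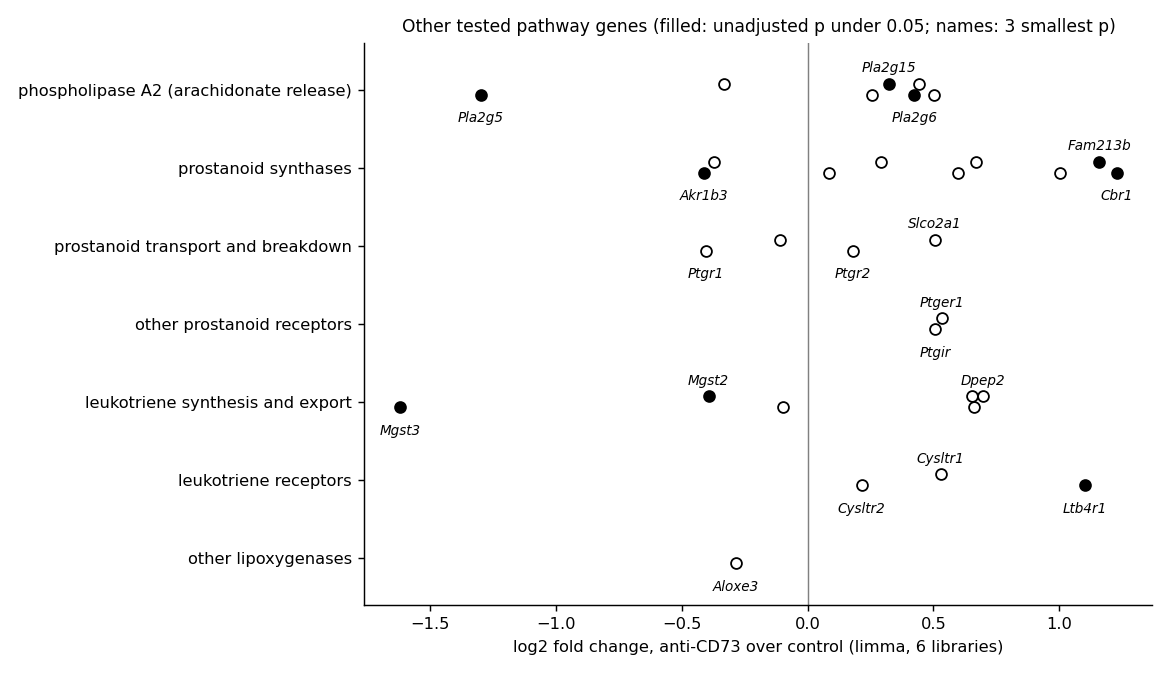
Log2 fold change, anti-CD73 over control (horizontal axis, limma with 6 libraries), of the 32 tested genes of the pathway that are not members, by list. Filled points have an unadjusted p under 0.05, and names mark the 3 smallest p of each list. Points within a list are offset vertically for legibility. Cbr1 (1.23) and Mgst3 (-1.62) are at the ends of the range, and none passed over all genes.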

How the data were processed

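Bulk RNA-seq values of 6 mouse libraries, 3 anti-CD73 and 3 control, were used, with groups and replicate numbers from the sample titles and table columns matched by description. The authors deposited a signal per gene that the labels call DESeq normalized counts. Each library's values were whole multiples of 1 step, as counts over a size factor are. Bowtie 0.12.7 and mm10 are named without a role in the submitters' processing notes, and no source used here gives the counter, annotation release or strandedness. Reads shared by overlapping or similar genes may be split or lost, and levels of single genes were not ranked against each other, as counts grow with transcript length.

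Division by that step recovered the reads, and 100% of values lay within 0.01 of an integer. Groups were compared two-sided over 12262 genes with a mean of at least 10, using limma 3.58.1 in R 4.3.3 with a mean-variance trend. Values were log2(normalized count + 1), with Benjamini-Hochberg adjustment over these genes and a threshold of 0.05. The added 1 pulls a fold change of a gene with few reads toward 0, and fold changes from mean logs can exceed the ratio of means, as for Ptger2 (fold 1.96, ratio of means 1.64) and Ptger4 (2.02 and 1.61). EdgeR 4.0.16 (quasi-likelihood, TMM) called 0 genes and DESeq2 1.42.0 called 586 on the recovered reads. Poisson intervals of reads are exact, at 95%. The script was tested on simulated data. Coordinates are 1-based from RefSeq on GRCm38.p6. Figures were drawn with matplotlib 3.10.9.

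The members, gene lists, tests and the rule for named genes were chosen with earlier results of these data known. All 10 members are named, with the 3 tested genes of smallest p in each list of other pathway genes and the gene most like each of the 9 tested members. Genes named outside that rule were chosen after their values were seen. Of the markers, 3 erythroid symbols had no row in the table.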

Additional observations from a re-analysis of the deposited data

How the results depend on the processing

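Of 159 values of single members under the 18 alternatives, 131 kept their direction and side of the threshold, 20 kept their direction and passed it, and 8 turned in sign. Genes called numbered 586 by DESeq2, 1780 with the block by description number, 2724 without control replicate 1, 2703 by edgeR and 2679 by DESeq2 without it, against 0 otherwise, and members called numbered 2, 4, 5, 5 and 4 in the same order. With each library left out in turn, genes called ranged from 0 to 2724, members called from 0 to 5 and the member median from 0.029 to 0.32 (the highest without anti-CD73 replicate 3). That median was -0.093 with a mean of at least 50, a setting that leaves out Ptger2, Ptger4 and Alox5. Pla2g4a ranged from -0.44 to 0.12 with 1 library left out, turned to 0.12, 0.15 and 0.15 without control replicate 1 (limma, edgeR, DESeq2) and to 0.23 with the block by description number. Ptges ranged from -0.24 to 0.049 with 1 library left out and turned to 0.0085 with quantile normalization and 0.049 without control replicate 3, and Alox5ap to -0.029 without control replicate 1 and -0.15 with the block by description number. The cause was not tested. The replicate block by title number called 0 genes and 0 members. Same-numbered libraries correlated in their deviations across genes at 0.189, -0.0963 and 0.262, and anti-CD73 replicate 2 correlated best with control replicate 1 (0.177). The values 0.262 and 0.189 are the highest of all pairs. As the deviations were centred within groups of 3 libraries, such correlations cannot decide whether the libraries were paired. The title numbers were not taken as pairs because the labels do not tie them to animals. In the description numbering, which ties only 2 pairs, the block sets aside control replicate 1 and anti-CD73 replicate 2, and Alox5 did not pass with it (adjusted p = 0.0933). Hpgd had 1 to 9 reads a library, too few for it to be tested with the filter.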

Other observations

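Below the filter of 10 normalized counts, some genes of lipid mediator synthesis had groups that did not overlap. The share of all genes below the filter with such groups was not computed, so these have no background beside them. The genes named here were chosen after their values were seen, and their values are given without a call. Alox15, the lipoxygenase of macrophages and eosinophils, had a mean of 9.98, just under the filter. It stood at 19.5, 14.8 and 15.4 normalized counts in the anti-CD73 libraries and 5.08, 1.27 and 3.74 in the controls, with no overlap, and in the fit with no filter its log2 fold change was 2.12 (SE 0.49, limma adjusted p = 0.174). Ltc4s, the main leukotriene C4 synthase of mast cells and eosinophils, had 6, 6 and 0 reads after anti-CD73 and 1, 1 and 2 reads in the controls, with overlap (log2 fold change 0.69, SE 0.74). Dpep1, a dipeptidase that acts on leukotriene D4, had 1.86, 1.06 and 2.06 after anti-CD73 and 3.05, 10.1 and 12.7 in the controls, with no overlap (-1.70, SE 0.55, limma adjusted p = 0.265 with no filter). Pla2g4b, of the phospholipase A2 list, had 4, 10 and 4 reads after anti-CD73 and 2, 1 and 1 in the controls. Its groups did not overlap either (1.51, SE 0.51, limma adjusted p = 0.278 with no filter).

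The eosinophil sums given above were also lowest in control replicates 2 and 3. In control replicate 1 the sum of 29.4 lay in the anti-CD73 range, 18.5 to 32.5, whereas Alox15 at 5.08 lay below all anti-CD73 libraries. The part of these markers in the values of Alox15 was not tested.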
